A study of Homo sapiens and Mus musculus with 92 samples.

Results

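The genes described here are 32 genes of sterol and fatty acid synthesis and of its control by the sterol regulatory element binding proteins (SREBPs). They were chosen by symbol from the 28103 genes counted in RNA-seq of HEL cells. The 32 comprise 19 enzymes of sterol synthesis, 5 genes for the SREBPs, their regulators and a cholesterol carrier (called regulators here) and 8 enzymes that make or modify fatty acids. HEL is an established human erythroleukemia cell line, which the study used as leukemia cells without a rearranged MLL1 gene. MLL1 (gene KMT2A), a histone methyltransferase, and AF9 (gene MLLT3), a subunit of the super elongation complex, were each knocked down by lentiviral shRNA to ask which genes depend on them. The MLL1 experiment compared 3 libraries of control cells with 3 libraries of cells that carried MLL1 shRNA #1 (MLL1 KD cells), and the AF9 experiment compared 2 libraries of control cells with 2 libraries of cells that carried AF9 shRNA #1 (AF9 KD cells). The labels give the genotype of all control cells as WT, and the methods name a control shRNA. Each knockdown was profiled with 1 shRNA, so that effects of the target and of that shRNA cannot be told apart. Nothing in the labels says that the replicates came from separate cultures, and p values therefore measure only the spread between these libraries, which may be technical.

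Sterol synthesis starts from acetyl-CoA, runs through mevalonate, farnesyl diphosphate and squalene to lanosterol, and ends in cholesterol. When sterols in the endoplasmic reticulum are low, SCAP escorts the SREBPs to the Golgi, where they are cut to release an active transcription factor; when sterols are high, INSIG1 holds SCAP and the SREBPs back. SREBP2 (gene SREBF2) mainly drives genes of sterol synthesis, SREBP1 (gene SREBF1) mainly those of fatty acid synthesis, and INSIG1 is itself a target, closing a feedback loop.

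SREBPs bind the sterol regulatory element (SRE) and act with NF-Y, which binds the CCAAT box, and with Sp1, which binds the GC box. These letters were searched on both strands in RefSeq promoters of GRCh38.p14, which run from 250 bases before to 50 bases after a transcription start. A promoter was listed for 28 of the 32 members and for 27305 genes in all, and a gene with several listed promoters counted once. The NF-Y box, CCAAT, occurred in 21 of the 28 members (75.0%) and in 39.7% of all genes. The Sp1 GC box, GGGCGG, occurred in 26 members (92.9%) and in 48.3% of all genes. The SRE core TCACNCCAC occurred in 1 member, SREBF2, and in 1.39% of all genes, and its shorter form CACNCCAC, which every match to the longer form contains, in 6 members (21.4%) and in 7.05% of all genes. The 6 were IDI1, SC5D, INSIG1, SREBF2, ACACA and SCD. The E-box CACGTG, a further SREBP1 site, occurred in 4 members (14.3%) and in 8.77% of all genes. Of the 16 sterol enzymes with a listed promoter 13 held an NF-Y box, as did 3 of the 5 regulators and 5 of the 7 fatty acid enzymes. A match is a stretch of letters and not a shown binding site.

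Stretches that hold these letters are printed for 5 members on which the results turn, from 5′ to 3′ on the gene's strand, with the NF-Y boxes and SRE cores in capitals on either strand. HMGCS1 (chr5:43313496-43313579, minus strand, 167 to 84 bases before the start, with 17 of its 84 bases inside annotated exons) has a pair of NF-Y boxes. MSMO1 (chr4:165327472-165327651, plus strand, 197 to 18 bases before the start) has 4. INSIG1 (chr7:155297658-155297724, plus strand, 220 to 154 bases before the start) has a short SRE core and an NF-Y box. SREBF2 (chr22:41832962-41832990, plus strand, 143 to 115 bases before the start, inside an annotated exon) has the only full SRE core among the members. SCD (chr10:100346992-100347138, plus strand, 241 to 95 bases before the start) has a pair of NF-Y boxes and a short SRE core.
HMGCS1: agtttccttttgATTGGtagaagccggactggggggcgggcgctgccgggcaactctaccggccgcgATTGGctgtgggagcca
MSMO1: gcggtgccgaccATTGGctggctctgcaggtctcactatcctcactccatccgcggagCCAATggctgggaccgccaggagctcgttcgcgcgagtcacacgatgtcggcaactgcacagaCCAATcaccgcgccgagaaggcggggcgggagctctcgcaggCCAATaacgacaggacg
INSIG1: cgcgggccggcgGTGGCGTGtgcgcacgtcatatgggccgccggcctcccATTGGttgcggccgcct
SREBF2: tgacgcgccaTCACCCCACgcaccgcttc
SCD: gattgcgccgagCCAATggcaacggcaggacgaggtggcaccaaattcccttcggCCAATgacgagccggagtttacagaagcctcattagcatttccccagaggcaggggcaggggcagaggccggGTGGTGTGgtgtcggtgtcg

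**Figure D1:**
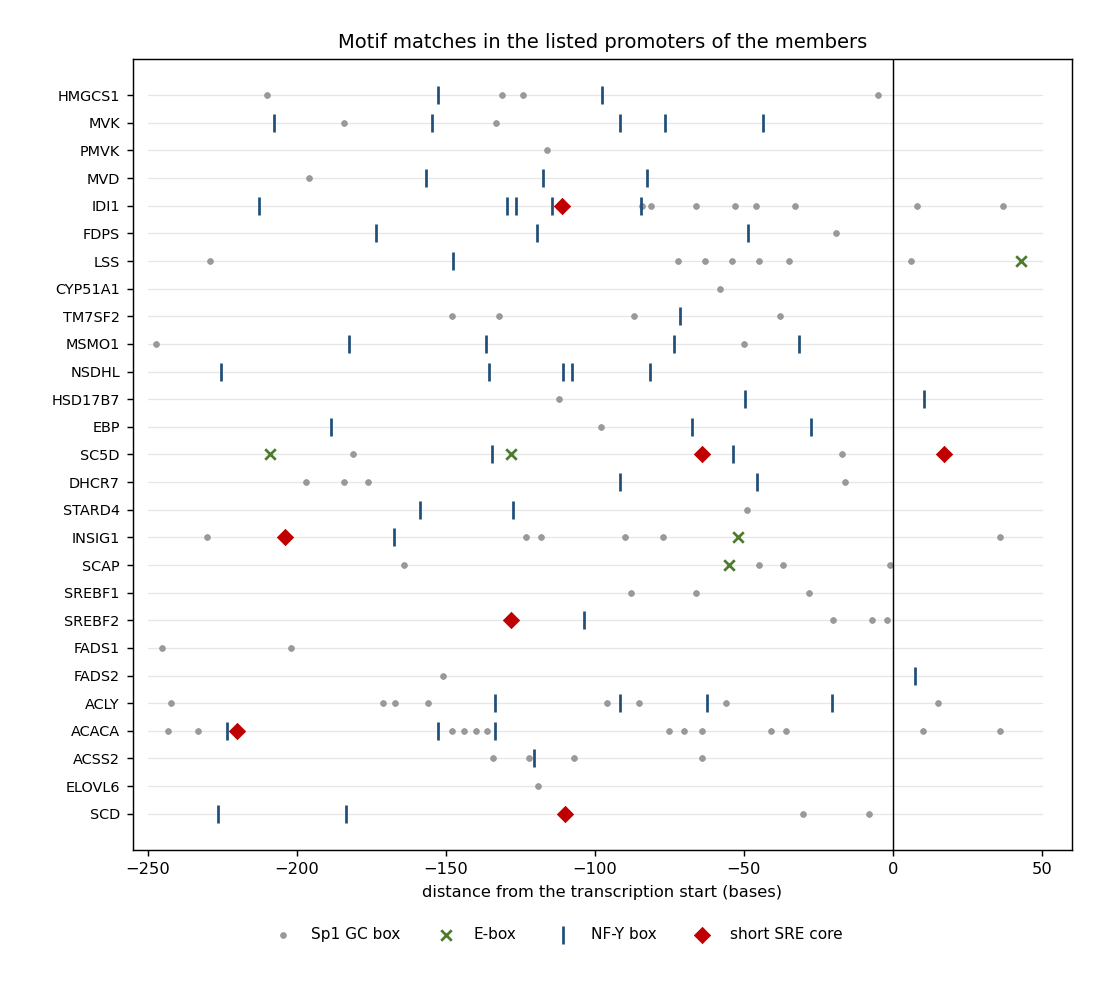
Position of each motif match in bases from the transcription start (x axis) for the 27 members with at least 1 match in a listed promoter (y axis). Blue bars mark NF-Y boxes, red diamonds short SRE cores, grey points Sp1 GC boxes and green crosses E-boxes. NF-Y boxes stand in 21 members and short SRE cores in 6.

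Total counts lay between 6966345 and 10380241 in the MLL1 experiment and between 12278989 and 14232408 in the AF9 experiment. Levels below are given as CPM, counts scaled to the library's size with edgeR's TMM factors, or, where genes are compared with each other, as TPM, which also takes account of gene length. In the MLL1 experiment KMT2A was at 1319, 1302 and 1254 CPM in control and 815, 812 and 832 CPM in MLL1 KD replicates 1, 2 and 3. In the AF9 experiment MLLT3 was at 548 and 527 CPM in control and 107 and 92.5 CPM in AF9 KD cells. All MLL1 KD libraries were below all their controls for KMT2A (log2 fold change -0.66, SE 0.0904, adjusted p = 0.0721; with the replicate number as a block, adjusted p = 2.25e-07), and both AF9 KD libraries were below both controls for MLLT3 (-2.43, SE 0.106, adjusted p = 3.17e-08). Replicate 1 of the MLL1 experiment stood apart in both groups: chi-square over degrees of freedom between the counts of replicates 2 and 3 was 2.35 in control and 2.64 in MLL1 KD cells, and between replicate 1 and either of the others 30 to 57.7. Erythroid marker genes, such as GATA1 and KLF1, summed to 967 to 974 CPM in control and 843 to 898 CPM in MLL1 KD cells, and to 1309.6 and 1319 CPM in control and 1817 and 1468 CPM in AF9 KD cells. Megakaryocyte markers, such as ITGA2B, summed to 1582 to 1690.1 CPM in control and 1277 to 1465 CPM in MLL1 KD cells, and to 863 and 1014 CPM in control and 952 and 1199.5 CPM in AF9 KD cells. Except for megakaryocyte markers in the AF9 experiment these sums did not overlap between knockdown and control cells, and their part in the members' changes was not tested. Lymphocyte markers summed to 1.35 to 7.63 CPM, fibroblast markers to 3.25 to 26.2 CPM and epithelial markers, which include the keratins KRT8 and KRT18, to 52.4 to 69.5 CPM.

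All 32 members passed the filter of a mean TPM of at least 1 in both experiments. Their levels in control cells differed between the experiments. The tables were counted separately, the levels below are TPM within each library, and no test was made across them. For 25 members both AF9 experiment controls were above all 3 controls of the MLL1 experiment, for 3 members below, and for 4 the ranges overlapped. Among 12490 genes with a length, the corresponding shares were 42.1% above and 36.1% below. The median ratio was 2.36 over the members and 1.05 over these genes. SCD, which puts the first double bond into saturated fatty acids, was the highest member in the AF9 controls at 5168 ± 119.5 TPM (SD, n = 2), against 203 ± 97.8 TPM (SD, n = 3) in the controls of the MLL1 experiment. HMGCS1, which makes HMG-CoA, was at 311 ± 10.1 TPM (SD, n = 2) against 20.3 ± 20.9 TPM (SD, n = 3). The opposite order held for 3 members: FASN, the fatty acid synthase, at 121 ± 32.6 TPM (SD, n = 2) against 500.5 ± 364 TPM (SD, n = 3), SCAP at 54.0 ± 0.594 TPM (SD, n = 2) against 155 ± 19.0 TPM (SD, n = 3), and SREBF1 at 13.3 ± 1.92 TPM (SD, n = 2) against 61.0 ± 5.72 TPM (SD, n = 3).

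**Figure D2:**
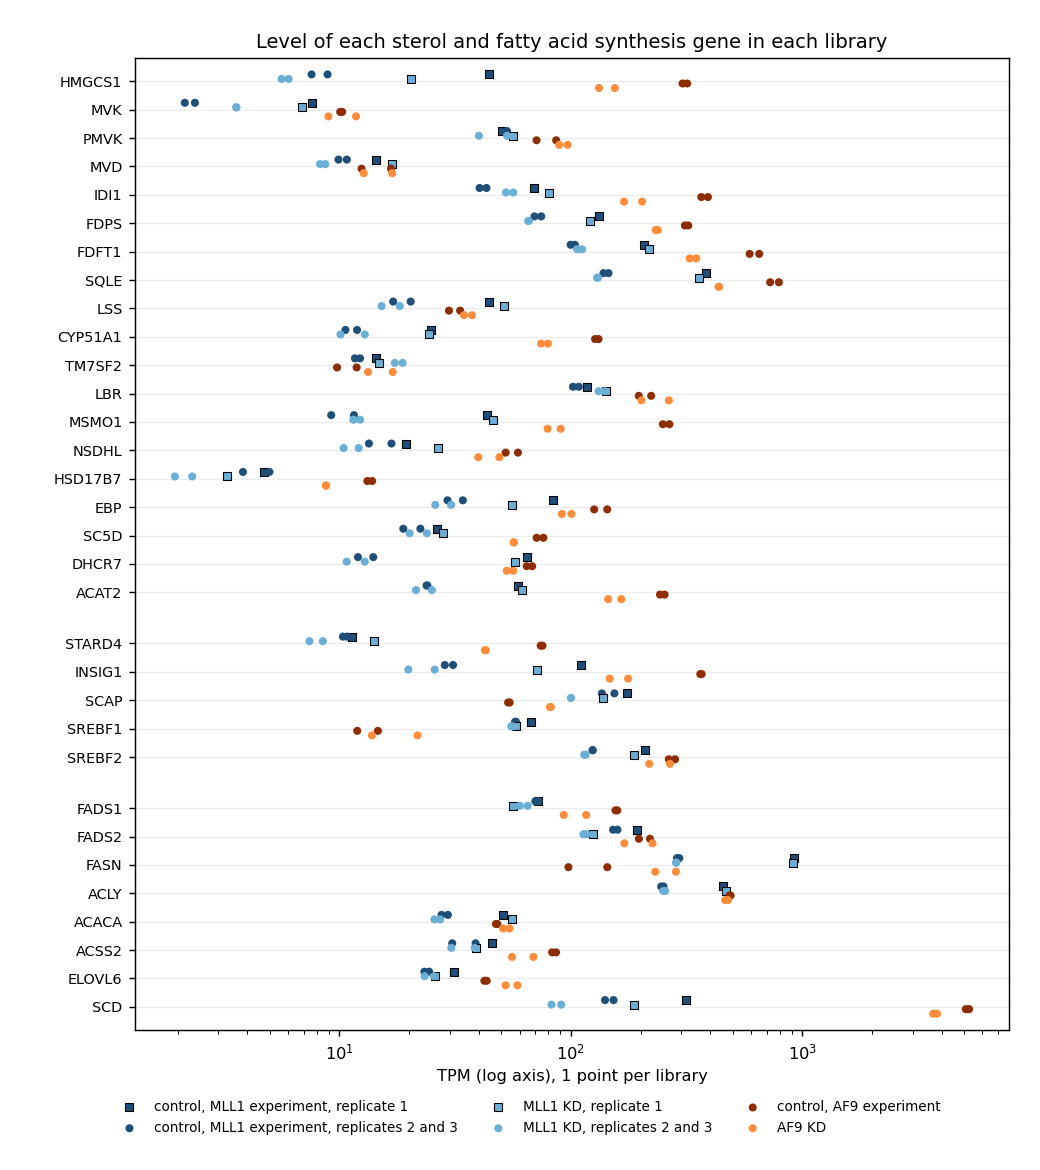
TPM on a log axis (x axis) of the 32 members (y axis) in each of the 10 libraries, 1 point per library. Blue marks the MLL1 experiment, with replicate 1 as squares, and orange and brown the AF9 experiment. SCD lies at 3676 TPM or more in all AF9 experiment libraries and at 316 TPM or less in all MLL1 experiment libraries, while FASN and SREBF1 lie lower in the AF9 experiment controls.

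In AF9 KD cells, 9 of the 19 sterol enzymes and the regulators INSIG1 and STARD4 were downregulated, and FASN was upregulated. The calls of FASN and of the sterol enzyme HSD17B7 were lost with the offsets for GC content given below. Of the 32 members, 12 were lower (fold change of at least 1.5 and adjusted p under 0.05), against 5.06% of the 13333 genes tested, and 1 was higher, against 8.02%. The 12 were 9 of 19 sterol enzymes, 2 of 5 regulators and 1 of 8 fatty acid enzymes. The median log2 fold change was -0.46 over the members and 0.01 over all genes tested. For 20 members both AF9 KD libraries were below both controls, a pattern seen in 33.2% of all genes tested, and for 4 members both were above, seen in 32.8%. Without control replicate 1 the shares of all genes called were 3.72% lower and 4.16% higher, with 11 members lower and 1 higher. In these bulk libraries, fewer cells with a transcript and less of it per cell cannot be told apart.

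The early sterol enzymes that fell are those of the first steps and of the isoprenoid units. ACAT2, which joins acetyl-CoA units, was at 156 and 151 CPM in control and 96.0 and 82.5 CPM in AF9 KD cells, a log2 fold change of -0.79, SE 0.101, adjusted p = 0.000147. HMGCS1, the next enzyme, was at 492 and 476 CPM in control and 193 and 221 CPM in AF9 KD cells (-1.22, SE 0.101, adjusted p = 6.87e-06). IDI1, which interconverts both isoprene units, was at 392 and 372 CPM in control and 192 and 157 CPM in AF9 KD cells (-1.13, SE 0.108, adjusted p = 2.18e-05). For all 3 genes the AF9 KD libraries lay below both controls, and HMGCS1 and IDI1 fell to 42.8% and 45.8% of control. The kinases and the decarboxylase between them did not pass: MVK, mevalonate kinase, was at 21.6 and 21.5 CPM in control and 17.8 and 22.9 CPM in AF9 KD cells (-0.08, SE 0.149, adjusted p = 0.723). MVD, which decarboxylates mevalonate diphosphate, was at 13.7 and 18.6 CPM in control and 13.2 and 17.2 CPM in AF9 KD cells (-0.08, SE 0.182, adjusted p = 0.774). PMVK, phosphomevalonate kinase, had a log2 fold change of 0.13, SE 0.147, adjusted p = 0.528. For MVK and MVD the groups overlapped. With the offsets for GC content described below, MVD was called lower (-0.63, adjusted p = 0.00467). Exonic GC content was 46.1%, 40.3% and 43.1% for ACAT2, HMGCS1 and IDI1, and 56.1%, 59% and 63% for MVK, PMVK and MVD.

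At the steps that lead to squalene and lanosterol, FDPS, which makes farnesyl diphosphate, was at 279 and 273 CPM in control and 194 and 186 CPM in AF9 KD cells (-0.54, SE 0.0911, adjusted p = 0.000936), below both controls but by less than 1.5-fold. FDFT1, squalene synthase, was at 772 and 711 CPM in control and 365 and 382 CPM in AF9 KD cells (-0.99, SE 0.0982, adjusted p = 2.72e-05). SQLE, squalene epoxidase and a rate-limiting step, was at 796 and 739 CPM in control and 414 and 403 CPM in AF9 KD cells (-0.91, SE 0.0972, adjusted p = 4.74e-05). Each AF9 KD library was below both controls for FDFT1 and SQLE, at 50.3% and 53.3% of control on average. LSS, which closes the ring to lanosterol, was at 50.2 and 56.9 CPM in control and 55.0 and 58.4 CPM in AF9 KD cells and its groups overlapped (0.09, SE 0.108, adjusted p = 0.592).

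Among the enzymes that turn lanosterol into cholesterol, MSMO1, which oxidizes the methyl groups of the ring, changed most of all members. It was at 177 and 168 CPM in control and 49.8 and 55.6 CPM in AF9 KD cells, 30.5% of control (log2 fold change -1.71, SE 0.1, adjusted p = 5.47e-07). CYP51A1, the lanosterol demethylase, was at 128 and 126 CPM in control and 68.3 and 71.6 CPM in AF9 KD cells (-0.86, SE 0.0939, adjusted p = 5.44e-05), and 91.5% of the 31-base stretches of its transcript also occur in another annotated gene, so that its counts are uncertain. HSD17B7, a sterol keto reductase, was at 15.5 and 14.9 CPM in control and 9.20 and 9.05 CPM in AF9 KD cells (-0.73, SE 0.161, adjusted p = 0.0043), with 65.5% of its stretches shared. EBP, a sterol isomerase with 55.9% shared, was at 59.2 and 52.7 CPM in control and 35.6 and 38.4 CPM in AF9 KD cells (-0.60, SE 0.114, adjusted p = 0.00189). All 4 were below both controls in both AF9 KD libraries, and the call for EBP was near the threshold: it was lost without control replicate 1 (log2 fold change -0.51) or AF9 KD replicate 1 (-0.54). NSDHL, a sterol dehydrogenase, was at 27.5 and 24.7 CPM in control and 21.6 and 17.1 CPM in AF9 KD cells (-0.43, SE 0.146, adjusted p = 0.0397). DHCR7, the reductase of the last step, was at 103 and 111 CPM in control and 80.0 and 83.7 CPM in AF9 KD cells (-0.39, SE 0.095, adjusted p = 0.00836). SC5D, a sterol desaturase, was below both controls as well (-0.49, SE 0.0913, adjusted p = 0.00176), and these 3 did not reach 1.5-fold. TM7SF2 and LBR, a pair of sterol reductases, had log2 fold changes of 0.38, SE 0.191, adjusted p = 0.152 and 0.05, SE 0.125, adjusted p = 0.794.

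Of the regulators, INSIG1 and STARD4 fell, and SCAP, SREBF2 and SREBF1 were not called. INSIG1 was at 313 and 313 CPM in control and 118 and 139 CPM in AF9 KD cells, 41.2% of control (log2 fold change -1.28, SE 0.102, adjusted p = 5.75e-06). STARD4, a carrier of cholesterol between membranes, was at 98.2 and 101 CPM in control and 53.2 and 52.6 CPM in AF9 KD cells (-0.91, SE 0.0962, adjusted p = 4.25e-05). SCAP was at 78.6 and 80.9 CPM in control and 112 and 111 CPM in AF9 KD cells, and both AF9 KD libraries were above both controls at less than 1.5-fold (0.49, SE 0.0928, adjusted p = 0.00187). SREBF2 was at 498 and 537 CPM in control and 387 and 466 CPM in AF9 KD cells (-0.28, SE 0.108, adjusted p = 0.0681). SREBF1 was at 22.9 and 28.5 CPM in control and 25.1 and 38.6 CPM in AF9 KD cells (0.31, SE 0.181, adjusted p = 0.212), with overlapping groups.

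The fatty acid enzymes did not move together. FASN was at 212 and 317 CPM in control and 475 and 571 CPM in AF9 KD cells, and both AF9 KD libraries were above both controls (log2 fold change 0.99, SE 0.153, adjusted p = 0.0005). FADS1, which desaturates polyunsaturated fatty acids, was at 379 and 377 CPM in control and 209.8 and 257 CPM in AF9 KD cells (-0.69, SE 0.107, adjusted p = 0.000487), and its call was lost without AF9 KD replicate 1 (log2 fold change -0.55, adjusted p = 3.68e-05). SCD was at 6431 and 6306 CPM in control and 4247 and 4318 CPM in AF9 KD cells, just under 1.5-fold (-0.57, SE 0.11, adjusted p = 0.00204). ACLY, which supplies cytosolic acetyl-CoA, was at 587 and 604 CPM in control and 532 and 537 CPM in AF9 KD cells (-0.15, SE 0.0941, adjusted p = 0.235). ACACA, acetyl-CoA carboxylase, was at 146 and 146 CPM in control and 156 and 143 CPM in AF9 KD cells (0.03, SE 0.0927, adjusted p = 0.828). The groups of ACACA overlapped, and those of ACLY did not. ACSS2, FADS2 and ELOVL6 had log2 fold changes of -0.55, -0.18 and 0.27.

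Fold changes in AF9 KD cells moved with the GC content of the gene. Across the 32 members, the Spearman correlation of log2 fold change with exonic GC content was 0.69, and across 13045 genes tested it was 0.48, which describes these libraries. The median GC content was 42.7% in the 12 lower members and 51.2% in all 32, and FASN had 65.2%. With offsets that remove each library's trend with GC content, 15 members were lower (4.32% of all genes tested) and 0 were higher (3.68%). At an unadjusted p under 0.05, 2 members were higher with these offsets, and the share of all genes at that p was not counted. FASN then had a log2 fold change of 0.32, SE 0.0896, adjusted p = 0.02, HSD17B7 missed the fold threshold (-0.58, SE 0.14, adjusted p = 0.0103), and MVD, FDPS, DHCR7 and ACSS2 gained a call. MSMO1 (-1.52), INSIG1 (-1.18) and HMGCS1 (-1.06) kept log2 fold changes below -1. Of the 19 sterol enzymes, 18 had a log2 fold change below 0 with the offsets, and 11 were called lower. Without the offsets these counts were 15 and 9. The part of GC content in the change of FASN beyond these offsets was not tested.

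**Figure D3:**
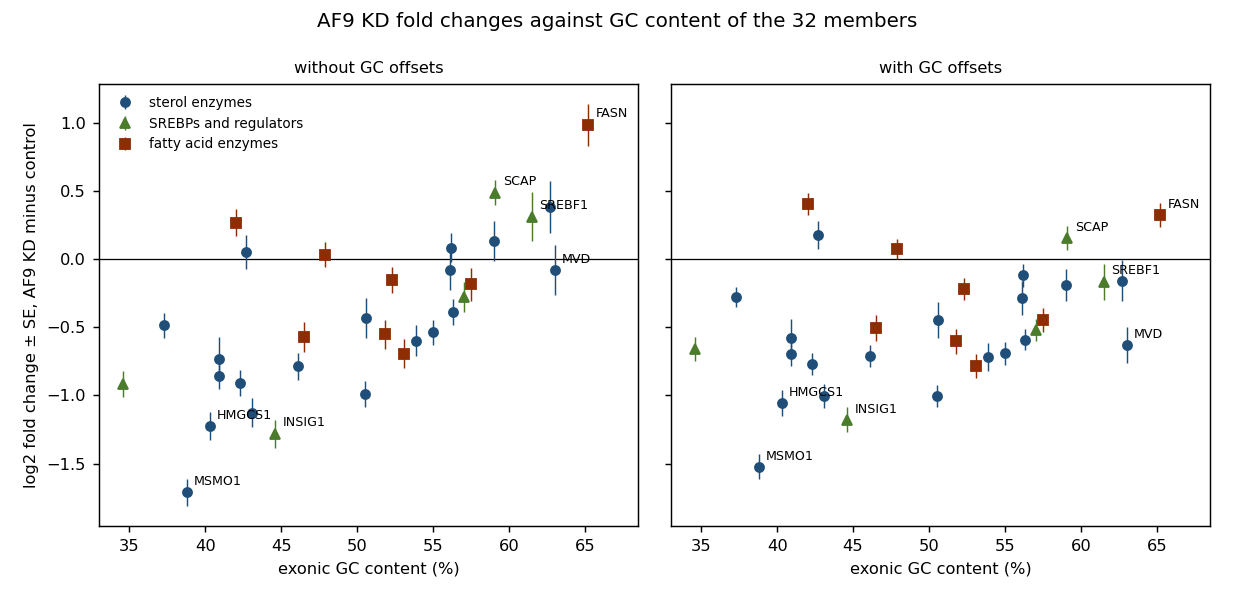
Log2 fold change in AF9 KD cells with its SE (y axis) against exonic GC content in percent (x axis) for the 32 members, without (left) and with (right) offsets for GC content. Circles are sterol enzymes, triangles SREBPs and regulators and squares fatty acid enzymes. FASN, at 65.2% GC, moves from 0.99 to 0.32, and MSMO1, at 38.8% GC, from -1.71 to -1.52.

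In MLL1 KD cells, none of the 32 members was called in the comparison of 3 with 3 libraries by edgeR, and 0 higher and 0 lower members stood beside 0.0347% of 14394 genes tested in each direction. DESeq2 also called 0 members, against 0.785% of all genes tested higher and 0.827% lower. At an unadjusted p under 0.05 by edgeR, 1 member was higher and 3 were lower, and the share of all genes at that p was not counted. Replicate 1 was far above the others for many members in both groups, which widened the spread within groups. With the replicate number as a block, 2 members were lower (2.53% of all genes tested), HMGCS1 and SCD, and 0 were higher (2.22%). HMGCS1 was at 73.7, 13.3 and 15.4 CPM in control and 33.6, 10.3 and 9.81 CPM in MLL1 KD replicates 1, 2 and 3. Each MLL1 KD replicate was below the control of the same number, and the log2 fold change was -0.79, SE 0.163, adjusted p = 0.00292 with the block and -0.92, SE 0.75, adjusted p = 0.774 without it. In replicates 2 and 3 alone it was -0.52, SE 0.203, adjusted p = 0.0582, so that the call for HMGCS1 rests on replicate 1, and without the block and without control replicate 1 it was 0.33 (adjusted p = 0.849). SCD was at 415, 213 and 192 CPM in control and 244, 112 and 125 CPM in MLL1 KD replicates 1, 2 and 3. Its MLL1 KD libraries were all below the same-numbered controls, with a log2 fold change of -0.77, SE 0.0788, adjusted p = 2.63e-06 with the block, -0.77, SE 0.382, adjusted p = 0.578 without it, and -0.77, SE 0.0661, adjusted p = 1.33e-22 in replicates 2 and 3 alone.

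Several other members had smaller or less certain differences in MLL1 KD cells. SCAP was at 274, 257 and 224 CPM in control and 215, 163 and 166 CPM in MLL1 KD replicates 1, 2 and 3, all MLL1 KD libraries below all controls (-0.48, SE 0.0786, adjusted p = 0.000403 with the block). INSIG1 was at 101, 30.0 and 27.2 CPM in control and 65.1, 24.3 and 19.1 CPM in MLL1 KD replicates 1, 2 and 3, below the same-numbered control in all 3 pairs (-0.50, SE 0.117, adjusted p = 0.00714 with the block). HSD17B7 was at 5.67, 4.86 and 6.23 CPM in control and 3.88, 2.41 and 2.91 CPM in MLL1 KD replicates 1, 2 and 3, again with no overlap (-0.87, SE 0.297, adjusted p = 0.06 with the block). It was called in replicates 2 and 3 alone (-1.05, SE 0.37, adjusted p = 0.0301), at 2.41 to 6.23 CPM over all libraries. FADS2, a desaturase like FADS1, was lower in all MLL1 KD libraries (-0.51, SE 0.0674, adjusted p = 4.86e-05 with the block), as was FADS1 (-0.26, SE 0.0787, adjusted p = 0.0366). LBR (0.32, SE 0.0762, adjusted p = 0.00769) and TM7SF2 (0.39, SE 0.183, adjusted p = 0.175) were higher in all MLL1 KD libraries, with values from the block. IDI1 was above the same-numbered control in all 3 pairs (0.31, SE 0.099, adjusted p = 0.0439 with the block). SREBF1 was at 139, 127 and 123 CPM in control and 119, 120.0 and 119.8 CPM in MLL1 KD replicates 1, 2 and 3. Its MLL1 KD libraries were all below its controls, by a log2 fold change of -0.12, SE 0.0841, adjusted p = 0.415 with the block. In all, 5 members were lower and 2 were higher without overlap, against 9.05% and 8.66% of all genes tested. FASN was at 2147, 711 and 716 CPM in control and 2111, 687 and 699 CPM in MLL1 KD replicates 1, 2 and 3, and its log2 fold change was -0.04, SE 0.0515, adjusted p = 0.72 with the block. The median log2 fold change without the block was -0.08 over the members and 0.01 over all genes tested, and the sign of the members' median depended on single libraries: it was 0.25 without control replicate 1, 0.11 without MLL1 KD replicate 2, 0.07 without MLL1 KD replicate 3 and -0.44 without MLL1 KD replicate 1.

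The effects of both knockdowns on the members were then compared by the difference of the log2 fold changes, MLL1 KD minus AF9 KD, over the 12731 genes tested in both experiments. Mean KMT2A went from 1292 to 820 CPM in MLL1 KD cells, and mean MLLT3 from 537 to 99.8 CPM in AF9 KD cells. Control levels also differed, such as MSMO1 at 21.4 TPM in the MLL1 and 258 TPM in the AF9 experiment. Target, depth of knockdown, control level and experiment therefore cannot be told apart in these differences. Without a block 0 members differed in either direction by edgeR, against 0.778% of genes with a higher and 0.573% with a lower difference. At an unadjusted p under 0.05, 5 members had a higher and 1 a lower difference, with the share of all genes not counted. DESeq2 called 1 member in each direction, against 3.06% of genes higher and 2.8% lower. With the replicate number as a block 9 members had a higher difference (6.98%) and 2 a lower one (8.3%). The largest was that of MSMO1, 1.86, SE 0.168, adjusted p = 2.5e-06, which fell in AF9 KD cells and had a log2 fold change of 0.14 in MLL1 KD cells. IDI1 (1.46, SE 0.126, adjusted p = 1.54e-06), FDFT1 (1.08, SE 0.111, adjusted p = 8.28e-06) and INSIG1 (0.80, SE 0.139, adjusted p = 0.000644) also differed upwards. The differences that went down were those of FASN (-1.02, SE 0.105, adjusted p = 8.28e-06) and SCAP (-0.95, SE 0.124, adjusted p = 6.18e-05). With the block and offsets for GC content 8 members had a higher difference (5.26%) and 1, SCAP, a lower one (3.96%), and FASN was at -0.37, SE 0.0979, adjusted p = 0.0178. STARD4 (0.50, SE 0.203, adjusted p = 0.111) and SC5D (0.34, SE 0.15, adjusted p = 0.144) were no longer called with these offsets. HMGCS1, called lower in AF9 KD cells and, with the block, in MLL1 KD cells, had a difference of 0.41, SE 0.172, adjusted p = 0.0954. SCD had a difference of -0.18, SE 0.0938, adjusted p = 0.189.

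**Figure D4:**
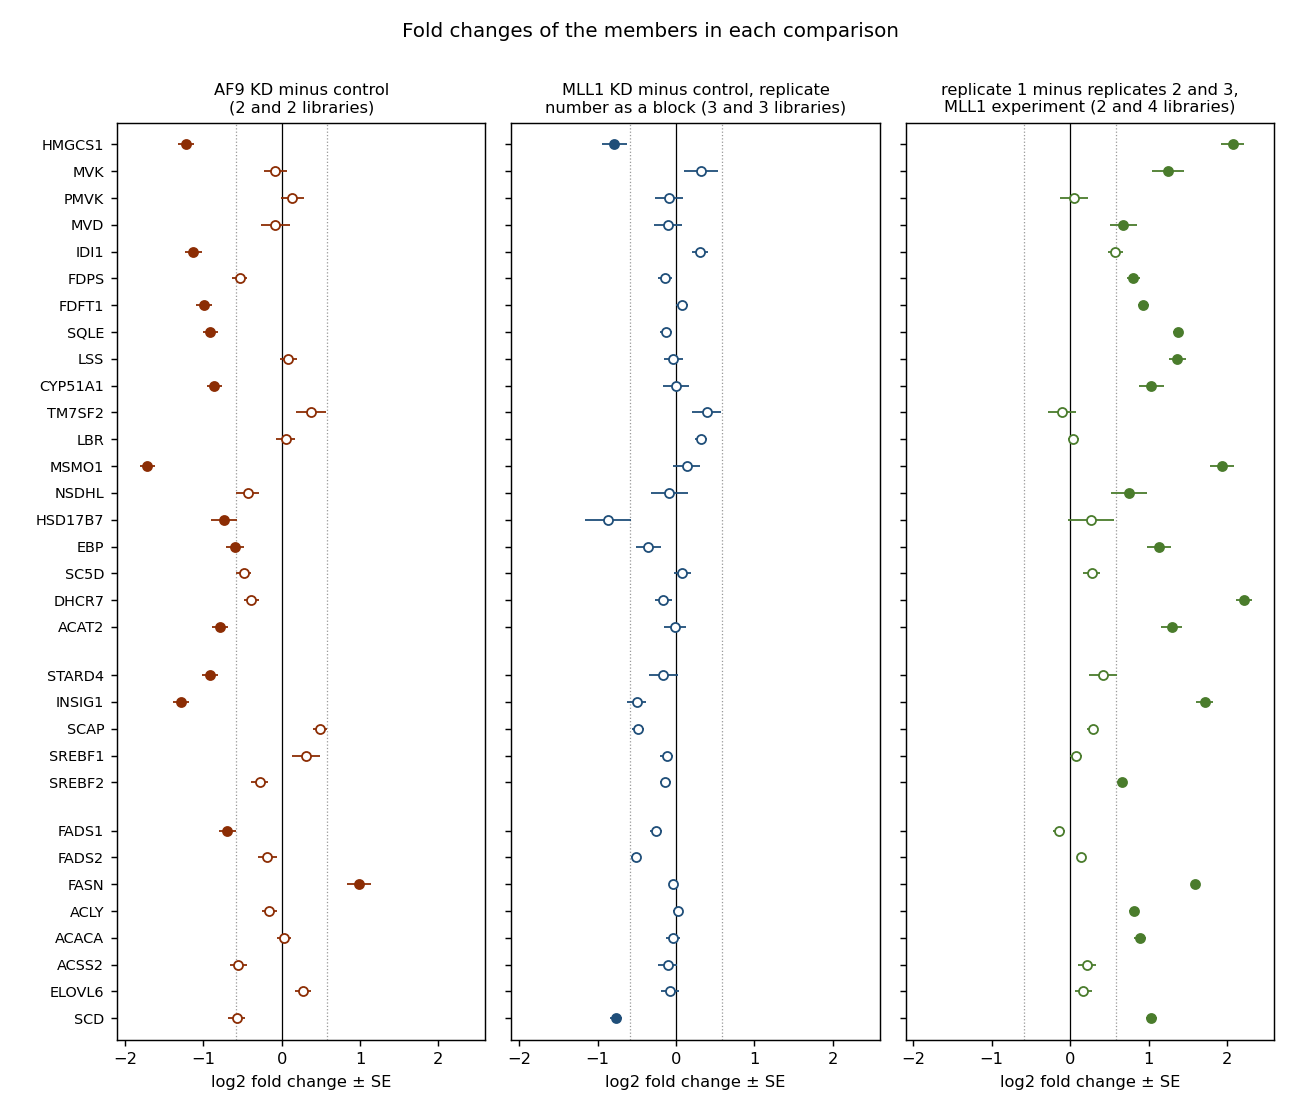
Log2 fold change with its SE (x axis) of the 32 members (y axis) in AF9 KD against control cells (left), in MLL1 KD against control cells with the replicate number as a block (middle) and in replicate 1 against replicates 2 and 3 of the MLL1 experiment (right). Filled points passed a fold change of 1.5 (dotted lines) and an adjusted p of 0.05: 12 lower and 1 higher on the left, 2 lower in the middle, and 19 higher on the right.

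Within the MLL1 experiment, more members differed between replicate 1 and replicates 2 and 3 than between MLL1 KD and control cells. With the groups as a covariate, 19 members were higher in replicate 1 (9.25% of all genes tested) and 0 were lower (12.3%). DESeq2 gave the same member counts (8.39% and 11% of all genes). By edgeR, 0 members were lower at an unadjusted p under 0.05, with the share of all genes not counted. The 19 higher members comprised 13 of 19 sterol enzymes, 2 of 5 regulators and 4 of 8 fatty acid enzymes. The median log2 fold change was 0.78 over the members and -0.01 over all genes tested. For 21 members both libraries of replicate 1 were above all 4 of the others, against 23.4% of all genes tested, and for 0 members both were below (22.7%). With control libraries alone 18 members were higher (7.41% of all genes tested), and with MLL1 KD libraries alone 20 (11.4%). Each of these fits set 1 library against 2, and the lone library was assumed to vary like replicates 2 and 3, which were close to each other. The labels give no culture, passage or date for the replicates, so that what sets replicate 1 apart was not tested.

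The 3 highest values were those of sterol enzymes. DHCR7 was at 111, 21.9 and 25.2 CPM in control and 98.5, 19.1 and 23.3 CPM in MLL1 KD replicates 1, 2 and 3, a log2 fold change of 2.22, SE 0.105, adjusted p = 1.75e-12. HMGCS1, with the values given above, had 2.07, SE 0.147, adjusted p = 7.91e-10. MSMO1 was at 31.1, 8.75 and 6.86 CPM in control and 32.7, 9.06 and 8.62 CPM in MLL1 KD replicates 1, 2 and 3 (1.94, SE 0.157, adjusted p = 5.08e-09). For all 3 genes replicate 1 was well above replicates 2 and 3 in both groups, while replicates 2 and 3 were close to each other. SQLE was at 413, 158 and 164 CPM in control and 382, 146 and 147 CPM in MLL1 KD replicates 1, 2 and 3 (1.37, SE 0.0632, adjusted p = 1.29e-12). LSS was at 80.2, 32.8 and 38.4 CPM in control and 92.2, 34.1 and 29.0 CPM in MLL1 KD replicates 1, 2 and 3 (1.37, SE 0.111, adjusted p = 5.68e-09). ACAT2 was at 39.2, 16.8 and 16.4 CPM in control and 40.6, 17.1 and 14.9 CPM in MLL1 KD replicates 1, 2 and 3 (1.29, SE 0.133, adjusted p = 1.28e-07). Both libraries of replicate 1 were again above the other 4 for these genes. MVK was at 17.1, 5.14 and 5.59 CPM in control and 15.5, 8.35 and 8.52 CPM in MLL1 KD replicates 1, 2 and 3 (1.25, SE 0.204, adjusted p = 4.17e-05). EBP was at 37.1, 13.7 and 15.8 CPM in control and 24.6, 13.9 and 12.1 CPM in MLL1 KD replicates 1, 2 and 3 (1.13, SE 0.152, adjusted p = 4.18e-06). CYP51A1 was at 25.9, 13.2 and 11.6 CPM in control and 25.4, 10.9 and 14.1 CPM in MLL1 KD replicates 1, 2 and 3 (1.04, SE 0.157, adjusted p = 1.83e-05). For MVK, EBP and CYP51A1 replicate 1 did not overlap the others either.

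The remaining sterol enzymes showed smaller differences. FDFT1 was at 263, 140.2 and 132 CPM in control and 274, 139.7 and 149.5 CPM in MLL1 KD replicates 1, 2 and 3 (0.93, SE 0.0693, adjusted p = 1.44e-09). FDPS was at 123, 73.4 and 67.6 CPM in control and 112, 63.2 and 64.0 CPM in MLL1 KD replicates 1, 2 and 3 (0.81, SE 0.0838, adjusted p = 1.56e-07). NSDHL was at 9.67, 8.88 and 6.99 CPM in control and 13.2, 5.38 and 6.36 CPM in MLL1 KD replicates 1, 2 and 3 (0.75, SE 0.227, adjusted p = 0.0109). Its difference came mostly from the MLL1 KD libraries, and it was no longer called without MLL1 KD replicate 1 (log2 fold change 0.29) or MLL1 KD replicate 2 (0.63, adjusted p = 0.0549). MVD was at 17.0, 13.5 and 12.2 CPM in control and 19.9, 10.1 and 10.8 CPM in MLL1 KD replicates 1, 2 and 3 (0.68, SE 0.172, adjusted p = 0.00307), and was not called without MLL1 KD replicate 1 (0.41). IDI1 was at 74.6, 46.0 and 48.4 CPM in control and 85.9, 58.2 and 63.7 CPM in MLL1 KD replicates 1, 2 and 3, just short of 1.5-fold (0.57, SE 0.0946, adjusted p = 4.99e-05). Both libraries of replicate 1 were above the other 4 for MVD, NSDHL and IDI1. PMVK, TM7SF2, LBR, HSD17B7 and SC5D had log2 fold changes between -0.10 and 0.28.

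Among the regulators, INSIG1, with the values above, was higher in replicate 1 (1.71, SE 0.113, adjusted p = 2.96e-10). SREBF2 was at 419.5, 265 and 261 CPM in control and 377, 241 and 242 CPM in MLL1 KD replicates 1, 2 and 3 (0.66, SE 0.06, adjusted p = 2.68e-08). STARD4 was at 16.1, 16.2 and 15.4 CPM in control and 20.0, 12.4 and 11.1 CPM in MLL1 KD replicates 1, 2 and 3, with overlapping ranges (0.41, SE 0.178, adjusted p = 0.0667). SCAP (0.29, SE 0.0743, adjusted p = 0.00358) and SREBF1 (0.07, SE 0.0785, adjusted p = 0.495) had smaller values, so that SREBF2 but not SREBF1 was called. The difference between SREBF2 and SREBF1 was not tested.

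Of the fatty acid enzymes, FASN had the highest CPM of all members in replicate 1, with the values given above, and stood far above replicates 2 and 3 in both groups (1.598, SE 0.0444, adjusted p = 2.22e-16). SCD was higher in replicate 1 as well (1.04, SE 0.0703, adjusted p = 4.34e-10). ACACA was at 166, 95.4 and 100 CPM in control and 180.4, 91.7 and 88.2 CPM in MLL1 KD replicates 1, 2 and 3 (0.89, SE 0.08, adjusted p = 2.15e-08). ACLY was at 592, 347 and 334 CPM in control and 608, 344 and 344 CPM in MLL1 KD replicates 1, 2 and 3 (0.81, SE 0.0559, adjusted p = 5.51e-10). The 4 genes did not overlap between replicate 1 and the others. FADS1 was at 184, 190.5 and 194 CPM in control and 143, 159 and 175 CPM in MLL1 KD replicates 1, 2 and 3, with no such gap (-0.14, SE 0.0751, adjusted p = 0.141), and FADS2, ACSS2 and ELOVL6 had log2 fold changes of 0.14, 0.22 and 0.17. The Spearman correlation of these log2 fold changes with GC content was -0.18 across the 32 members and 0.04 across 13987 genes. Monocyte markers, of which VCAN took the most counts and CD14 and FCN1 were at or near 0, summed to 12.3 to 15.0 CPM in replicate 1 and to 23.0 to 26.9 CPM in the other MLL1 experiment libraries, and their part in the result was not tested. In the AF9 experiment they summed to 1.89 to 4.41 CPM.

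**Figure D5:**
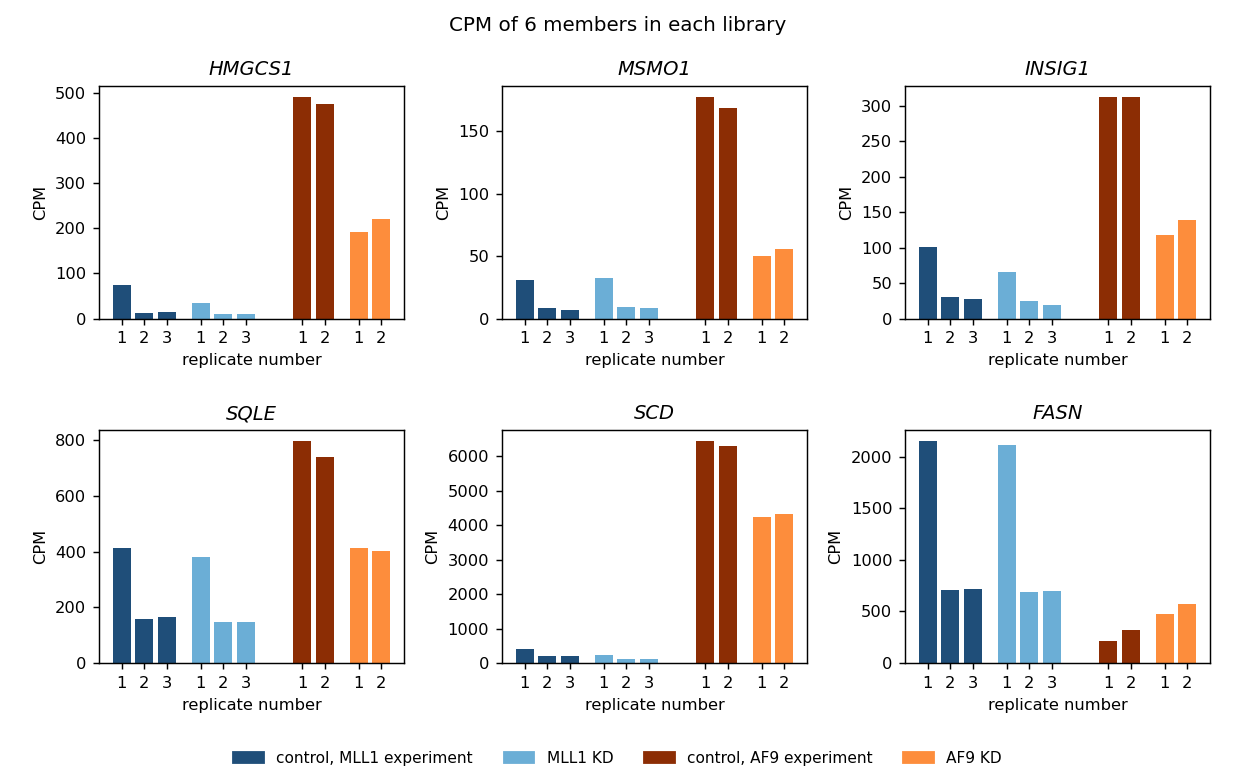
CPM (y axis) of HMGCS1, MSMO1, INSIG1, SQLE, SCD and FASN in each of the 10 libraries, by replicate number (x axis), 1 bar per library. Dark and light blue are control and MLL1 KD cells of the MLL1 experiment, brown and orange control and AF9 KD cells of the AF9 experiment. In every panel replicate 1 is the highest of its group in the MLL1 experiment, and AF9 KD bars are below their controls except for FASN.

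Whether the effect of MLL1 KD differed between replicate 1 and replicates 2 and 3 was tested as an interaction. No member was called by edgeR, with 0 higher (0.945% of all genes tested) and 0 lower (2.1%). At an unadjusted p under 0.05, 3 members had a higher and 3 a lower difference, with the share of all genes not counted. DESeq2 called 0 members, against 0.201% of all genes tested higher and 0.764% lower. FASN had a difference of 0.02, SE 0.0702, adjusted p = 0.952 and SCD of 0.00, SE 0.102, adjusted p = 1, while HMGCS1 had -0.62, SE 0.267, adjusted p = 0.183. With 1 library of each group in replicate 1, these SEs were larger than for MLL1 KD with the replicate block (FASN 0.0515, SCD 0.0788, HMGCS1 0.163). They were smaller than for MLL1 KD without the block (FASN 0.571, SCD 0.382, HMGCS1 0.75).

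The members that were higher in replicate 1 and those that fell in AF9 KD cells came from experiments that share no library. Of the 19 members higher in replicate 1, 8 were lower in AF9 KD cells, 1 (FASN) was higher, and 10 were not called. The share lower in AF9 KD cells was 42.1% of these 19 and 37.5% of all 32 members. It was 2.89% of the 1280 genes higher in replicate 1 among those tested in both experiments, and 5.07% of all 12731 genes so tested. The share higher in AF9 KD cells was 5.26% of the 19 members, 14.8% of the 1280 genes and 8.07% of the 12731. Of the 13 other members, 4 were lower in AF9 KD cells (IDI1, HSD17B7, STARD4 and FADS1). HMGCS1, MSMO1, INSIG1, SQLE, FDFT1, CYP51A1, ACAT2 and EBP are the 8.

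Other genes of the pathway were read from 4 lists with 69 genes of SREBP processing and its cofactors, of the isoprenoid branch, of fatty acid metabolism and of sterol handling, of which 65 were tested in each experiment. In AF9 KD cells 4 were higher and 5 lower of 65, against 8.02% and 5.06% of all genes tested, with a median log2 fold change of -0.05. The 5 that changed most were ACSL4, an acyl-CoA synthetase for arachidonate (-1.11, SE 0.0958, adjusted p = 9.15e-06), DOLK, the dolichol kinase (0.85, SE 0.247, adjusted p = 0.0199), MCAT, a mitochondrial malonyl transferase (0.85, SE 0.194, adjusted p = 0.0056), ALDOC, an aldolase (-0.82, SE 0.103, adjusted p = 0.000141), and RABGGTA, a subunit of a geranylgeranyl transferase (0.80, SE 0.202, adjusted p = 0.00947). With offsets for GC content 1 was higher and 5 were lower, and DOLK (0.62, adjusted p = 0.0633), MCAT (0.56, adjusted p = 0.0474) and RABGGTA (0.39, adjusted p = 0.0968) were no longer called. In MLL1 KD cells 0 were called without the block. With the block 1 was higher and 5 lower, against 2.22% and 2.53% of all genes tested, led by ELOVL7, a fatty acid elongase (-1.16, SE 0.134, adjusted p = 1.02e-05), HACD3, a dehydratase of fatty acid elongation (-0.82, SE 0.11, adjusted p = 5.43e-05), and ALDOC (-0.80, SE 0.0958, adjusted p = 1.55e-05), with ACSL1, a further acyl-CoA synthetase (-0.71, SE 0.115, adjusted p = 0.000368), and GPAM, the first enzyme of glycerolipid synthesis (0.69, SE 0.17, adjusted p = 0.0106), after them. In replicate 1 against replicates 2 and 3, 12 were higher and 3 lower of 65, against 9.25% and 12.3% of all genes tested, with a median of 0.20. Higher were ERG28, a scaffold of sterol enzymes (1.01, SE 0.143, adjusted p = 8.53e-06), PCYT2, of phosphatidylethanolamine synthesis (1.00, SE 0.124, adjusted p = 1.56e-06), POR, which passes electrons to CYP51A1 and SQLE (0.98, SE 0.172, adjusted p = 9.45e-05), and TMEM97, a sterol-binding membrane protein (0.96, SE 0.0969, adjusted p = 9.83e-08). NFYB, a subunit of NF-Y, was lower (-0.98, SE 0.172, adjusted p = 9.97e-05). The difference between the knockdown effects was called for 1 gene without the block, ELOVL7 (-1.03, SE 0.205, adjusted p = 0.0466), and for 6 higher and 5 lower of 64 genes with it, against 6.98% and 8.3% of all genes tested, where FADS3, HACD3, GPAM and LIPA followed ELOVL7. The interaction with replicate 1 was called for POR (0.91) and HACD2 (0.76), both higher, against 0.945% of all genes tested. Replicate 1 has 1 library of each group, so that spread was measured only between replicates 2 and 3.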

How the data were processed

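RNA-seq was made from poly(A), strand-specific libraries of HEL cells. The authors deposited whole-number read counts per gene, in 1 table for each knockdown. Per the labels and the methods, reads were filtered with fastp 0.13.1, mapped to hg38 with HISAT2 2.1.0 and counted by strand with featureCounts 1.6.1. The gene annotation behind the symbols is not given in the sources used here. Columns holding no sample of the labels numbered 0.

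From these counts, edgeR 4.0.16 (R 4.3.3) fitted quasi-likelihood models with TMM factors over genes whose mean TPM reached 1 (mean CPM of 1 without a length). Lengths and GC content came from GENCODE merged exons, matched by symbol for 92.3% of 28103 symbols. A call needed a fold change of at least 1.5 and a Benjamini-Hochberg adjusted p under 0.05 over all genes tested, two-sided. The SE is the log2 fold change divided by the square root of F. Scripts were tested on simulated data.

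Total counts per library were 6966345 to 14232408, which limits the precision of members at a few CPM. Deviations of same-numbered MLL1 experiment libraries from their group means correlated at 0.648, 0.326 and 0.352, and those of differently numbered libraries at -0.509 to 0.369, so that the replicate numbers were taken to pair control and MLL1 KD libraries, although libraries 2 and 3 correlated as well across numbers. Values for every library were given for members called in a comparison or in the blocked MLL1 fit, and always for INSIG1, SREBF1, SREBF2, SCAP, STARD4, HMGCS1, FASN and SCD. Of the other pathway lists, the 5 called genes with the largest absolute change in each comparison were named. The members and lists were chosen with earlier results of these data known.

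Alternatives were DESeq2 1.42.0, its size factors, total counts, no filter, a TPM minimum of 5, calls without a fold threshold, offsets for GC content (lowess, span 0.3), the replicate block, a batch term for replicate 1, and each library left out. Motifs were searched in RefSeq promoters with Python 3.11.15. Figures used matplotlib 3.10.9.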

Additional observations from a re-analysis of the deposited data

Results flagged for a closer look

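The effects of MLL1 KD and AF9 KD differed for 11 members when the difference itself was tested by edgeR with the replicate number as a block, 9 higher and 2 lower, against 6.98% and 8.3% of all genes tested. In the fit without a block, none of them passed. Target, depth of knockdown, level in control cells and experiment cannot be told apart in these differences. Values are log2 fold changes, MLL1 KD minus AF9 KD, and p values were adjusted by edgeR's fit over all genes. MSMO1 (1.86, adjusted p = 2.5e-06), IDI1 (1.46, adjusted p = 1.54e-06), FDFT1 (1.08, adjusted p = 8.28e-06), CYP51A1 (0.88, adjusted p = 0.00151), SQLE (0.80, adjusted p = 5.12e-05), ACAT2 (0.80, adjusted p = 0.0011), INSIG1 (0.80, adjusted p = 0.000644), STARD4 (0.79, adjusted p = 0.00939) and SC5D (0.59, adjusted p = 0.00781) had higher differences. FASN (-1.02, adjusted p = 8.28e-06) and SCAP (-0.95, adjusted p = 6.18e-05) had lower ones. With offsets for GC content added to the block, STARD4, SC5D and FASN were no longer called. Then 8 members had a higher (5.26%) and 1 a lower difference (3.96%).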

How the results depend on the processing

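Values were followed for the members called in a comparison, with or without the block, and for both targeted genes. Of these 804 values under the alternatives, 674 stayed on their side of the threshold, 115 newly passed it, 14 no longer did and 1 changed its sign while not called, that of HMGCS1 in MLL1 KD cells without control replicate 1 (0.33). With 2 libraries a group in the AF9 experiment, each left-out library leaves 1 in its group, which is assumed to vary like the others.

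Shares of all genes tested stand in parentheses after the member counts. In MLL1 KD cells 0 members were lower without a block (0.0347%), 2 with the replicate block (2.53%) and 2 with the block and GC offsets (2.49%). The block in DESeq2 gave 2 (1.79%), replicate 1 as a batch term 3 (2.75%) and replicates 2 and 3 alone 2 (2.38%). With the block and pair 1, 2 or 3 left out the counts were 2 (2.36%), 3 (2.05%) and 2 (2.93%). In AF9 KD cells 1 member was higher (8.02%), and 2 without the fold threshold (14.4%). With GC offsets 0 were higher (3.68%), also with the block added (4.2%). SREBF1 had a log2 fold change of 0.595 without AF9 KD replicate 1. The replicate block gave 12 lower (5.53%) and 1 higher member (9.15%) in AF9 KD cells, the same member counts as without it. For replicate 1, 18 to 20 members were higher (8.51% to 9.56%) with a library of replicate 2 or 3 left out.

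For the difference of effects, 0 members were higher (0.778%) and 0 lower (0.573%) without a block. DESeq2 gave 1 and 1 (3.06% and 2.8%), a mean TPM of at least 5 gave 1 and 1 (1.09% and 0.932%), and total counts gave 1 lower (0.88%). The replicate block gave 9 and 2 (6.98% and 8.3%), as did a batch term (7.05% and 8.39%). The block in DESeq2 (5.37% and 5.9%) and the block in the MLL1 experiment alone (6.95% and 8.16%) gave 9 and 2 as well. The block with GC offsets gave 8 and 1 (5.26% and 3.96%). With the block and pair 1, 2 or 3 left out, 10 (7.92%), 9 (6.26%) and 8 (6.68%) were higher. Each time 2 were lower (9.86%, 7.01% and 7.4%). Leaving out a library of the MLL1 experiment without the block gave 0 to 1 higher (0.0472% to 3.98%) and 0 to 1 lower (0.0236% to 3.32%). IDI1 was higher without MLL1 control replicate 1 (1.69) or MLL1 KD replicate 1 (1.26), and SCAP lower without the latter (-1.08). The causes were not tested. The interaction with replicate 1 could not be fitted without either library of replicate 1.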
